A study of Homo sapiens with 4 samples.

Results

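The highly methylated domains of HUDEP-2 cells were taken as non-overlapping 100 kb windows of chromosomes 1 to 22 in which at least 80% of the reads over CpG sites were methylated in non-differentiated cells. A window needed at least 200 CpGs listed in all 4 libraries. Of 26624 such windows, 4105 met the threshold (15.4%). They spanned 410 Mb and held 4337454 shared CpGs, 19.1% of those in all windows. HUDEP-2 is an immortalised human erythroid precursor line whose cells normally make adult haemoglobin. One library each was made by whole-genome bisulfite sequencing from 4 cultures of this line. The non-differentiated cells were untreated. The other cultures were differentiated for 4 days of growth and 2 days of maturation with 0.1% DMSO alone, or with DMSO plus either an inhibitor of DNMT1 or an inhibitor of EED, each added from expansion onwards. Compound names and doses are not given in the sources used here. With 1 library a group there is no replicate spread, so window differences were not tested, and intervals cover counting error only.

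In mammalian genomes most CpGs carry a methyl group, and DNMT1, brought to newly copied DNA by UHRF1, restores it on the new strand after replication. Many cultured cells have large, gene-poor, partly methylated regions between highly methylated ones. Bodies of transcribed genes are commonly highly methylated, and the histone mark H3K36 methylation, laid down by SETD2 and the NSD enzymes, attracts the DNMT3 enzymes that add new methyl groups. EED is a core subunit of Polycomb repressive complex 2, which methylates histone H3 at another lysine and is associated with silenced genes. Bisulfite sequencing reads unmethylated C as T, and does not tell methylated from hydroxymethylated C.

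These 4 stretches of 200 bases, outside untranslated regions, show what such windows hold at single-CpG scale, on the plus strand of hg38, with each CpG in capitals. In 2 of them the stretch is the one with the most shared CpGs, in the window keeping most methylation with the DNMT1 inhibitor (intergenic, chromosome 19), and in the window keeping least (ZMIZ1, low stretch). The JAK2 stretch, from the window with the highest level under the DNMT1 inhibitor, and the highly methylated ZMIZ1 stretch were added after values were seen.
JAK2 intron, chr9:5086105-5086304: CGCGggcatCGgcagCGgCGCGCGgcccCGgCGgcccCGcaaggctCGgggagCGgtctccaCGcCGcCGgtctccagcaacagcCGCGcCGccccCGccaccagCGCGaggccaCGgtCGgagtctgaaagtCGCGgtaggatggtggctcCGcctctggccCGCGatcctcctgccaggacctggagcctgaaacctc
intergenic, chr19:37289234-37289433: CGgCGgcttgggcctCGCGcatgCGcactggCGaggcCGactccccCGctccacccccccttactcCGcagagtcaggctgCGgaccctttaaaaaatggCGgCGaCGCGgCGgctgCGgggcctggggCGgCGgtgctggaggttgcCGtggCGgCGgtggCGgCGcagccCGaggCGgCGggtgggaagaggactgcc
ZMIZ1 intron, high, chr10:79159901-79160100: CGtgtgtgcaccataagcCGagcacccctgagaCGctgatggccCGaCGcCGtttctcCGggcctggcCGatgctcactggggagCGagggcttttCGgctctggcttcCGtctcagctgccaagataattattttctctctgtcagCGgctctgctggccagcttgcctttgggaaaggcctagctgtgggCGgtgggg
ZMIZ1 intron, low, chr10:79195443-79195642: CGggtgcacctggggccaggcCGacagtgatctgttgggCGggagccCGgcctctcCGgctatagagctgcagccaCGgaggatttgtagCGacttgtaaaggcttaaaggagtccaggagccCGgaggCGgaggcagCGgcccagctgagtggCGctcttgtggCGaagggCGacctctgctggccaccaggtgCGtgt

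Where 4 levels are given together, they are those of the non-differentiated, DMSO, DNMT1 inhibitor and then EED inhibitor library. The JAK2 stretch, with 28 CpGs, stood at 96.4%, 96.4%, 75.8% and 96.5%. For the 26 CpGs of the intergenic stretch the levels were 93.3%, 93.6%, 66.7% and 93.7%. These 2 CpG-dense stretches kept 78.7% and 71.3% of the DMSO level under the DNMT1 inhibitor. The high ZMIZ1 stretch, with 13 CpGs, read 97.7%, 92.2%, 29.9% and 95.03%, so 32.5% was kept. The low ZMIZ1 stretch, with 14 CpGs, read 2.23%, 1.97% and 0.529%, and 0% with the EED inhibitor. For that 0% the 95% Wilson interval reached 1.61%, which is too low a limit because CpGs on a fragment share reads. A highly methylated window can therefore hold a nearly unmethylated CpG cluster, here inside an intron with no canonical protein-coding start within 5 kb of its centre. Starts of other transcripts were not looked at.

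Depth was similar in the 4 libraries. Listed autosomal CpGs numbered 23829863 to 24045707 per library, with a mean coverage of 27.6 to 30.2 reads. In the highly methylated windows mean coverage ran from 27.6 to 29.4 reads, against 28.4 to 31.5 elsewhere. A window's level had a 95% Wilson half-width of 0.407 to 0.506 points at the median across libraries and 1.36 points at most. For the difference between DMSO and the EED inhibitor the median half-width was 0.592 points and the largest 1.48. CpGs on a fragment share reads, so these widths are too small. Gene expression was not measured, so the erythroid identity of the cultures cannot be checked against markers.

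Over all 4105 windows the methylation level was 85.75% in non-differentiated cells (95% Wilson interval 85.747 to 85.760%), 84.4% with DMSO, 26.1% under the DNMT1 inhibitor and 84.2% under the EED inhibitor. Single windows ranged from 80.0% to 94.6%, from 75.6% to 93.8%, from 16.1% to 41.2% and from 75.2% to 93.7% in the same order. The non-differentiated, DMSO and EED inhibitor ranges overlap almost fully, and the DNMT1 inhibitor range lies apart from them. The threshold used the non-differentiated values alone. In the DMSO library 3527 of the windows (85.9%) were still at 80% or more, and in the EED inhibitor library 3482 (84.8%). In the DNMT1 inhibitor library 0 were. Among the other 22519 windows, 6 reached 80% with DMSO and 8 with the EED inhibitor. The name thus holds for most of the windows with DMSO and with the EED inhibitor, and for none with the DNMT1 inhibitor.

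**Figure D1:**
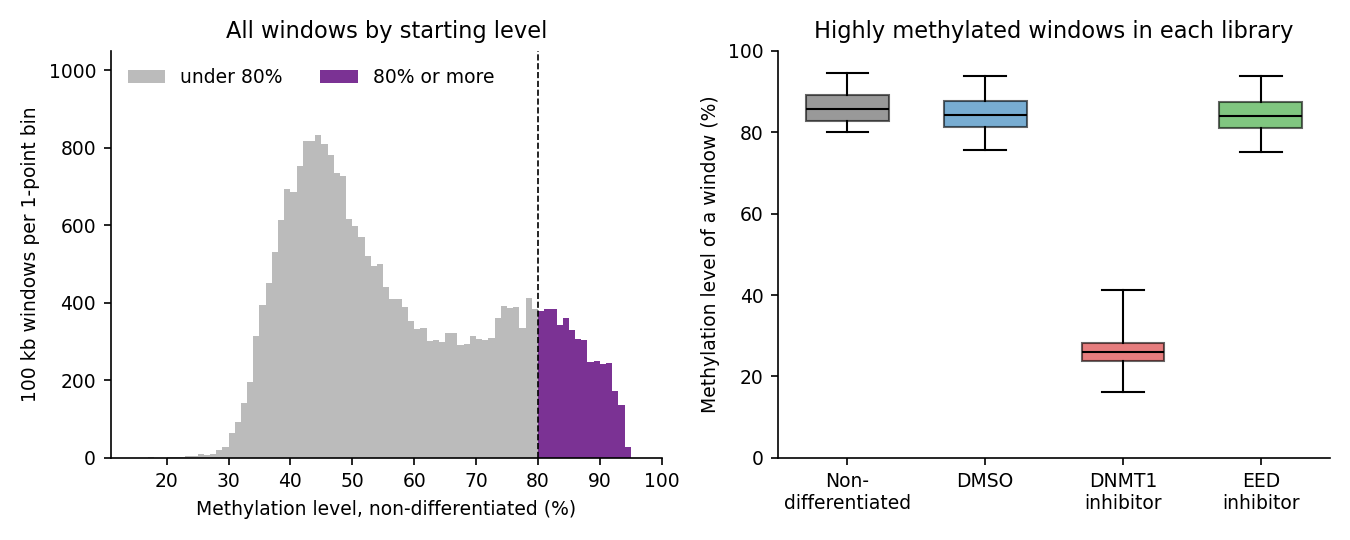
Left, number of 100 kb windows per 1-point bin of methylation level in non-differentiated cells, with windows at 80% or more in purple and the threshold dashed. Right, levels of the 4105 highly methylated windows in each library (line, median; box, quartiles; whiskers, lowest and highest): medians are 85.6%, 84.2%, 25.9% and 83.9%, and only the DNMT1 inhibitor box lies low.

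The threshold cuts through a continuous distribution, as the histogram of starting levels shows. The 5 windows just inside stood at 80.00 to 80.01%, and the 5 just outside at 79.99% or a value that rounds to 80.00%. Just inside lay the window of DCAF1 and RAD54L2, with 78.5% under DMSO and 24.1% under the DNMT1 inhibitor. Just outside lay the window of IKBKE and SRGAP2, with 79.0% and 19.3%. This pair does not stand for the 5 windows on each side, whose DNMT1 inhibitor levels overlapped. They ran from 21.98 to 24.28% just inside and from 18.42 to 23.68% just outside.

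The windows were spread over all 22 autosomes. Their share of a chromosome's windows ran from 10.6% on chromosome 8 and 10.9% on chromosome 4 to 26.5% on chromosome 17 and 29.2% on chromosome 22. Chromosome 19, the most gene-dense, had 13.65%, or 77 of 564. Chromosome 1 held the largest number, 398. With the DNMT1 inhibitor, the share of the DMSO level kept in the windows ran from 28.8% on chromosome 20 to 32.3% on chromosome 18.

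Adjacent windows formed 2005 runs, of which 1025 were single windows, 477 were pairs, 353 had 3 or 4 windows and 150 had 5 or more. So "domain" often means an isolated window, and 51.8% of the windows lay in runs of 3 or more. The longest run covered 1.9 Mb of chromosome 16 (68700001 to 70600000) and held 34 protein-coding starts. Among these were CDH1, which encodes E-cadherin, NQO1, a quinone reductase, NFAT5, a transcription factor of the osmotic stress response, and SF3B3, a splicing factor subunit. Its levels were 86.7%, 85.5%, 26.3% and 85.2% in the 4 libraries. The other 4 longest runs were 1.2 Mb each. The run on chromosome 2 held BMPR2, a BMP receptor, and kept 34.5% of its DMSO level with the DNMT1 inhibitor. The run on chromosome 14 held DYNC1H1, the dynein heavy chain, and HSP90AA1, a chaperone, and kept 31.8%. On chromosome 11 the run held F2, which encodes prothrombin, SPI1, the haematopoietic factor PU.1, and PSMC3, a proteasome subunit, and kept 27.6%. On chromosome 10 the run held KIF11, a mitotic kinesin, and HHEX, a homeobox factor, and kept 31.5%.

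The window that touches a run is under 80% by the rule, so for non-differentiated cells a step at the edge of runs of 2 or more windows is built in. There the median was 85.4% in the last window inside, 72.0% in the first outside, 64.6% in the next and 62.8% in the fifth. In the DNMT1 inhibitor library, which the rule did not use, the medians were 25.8%, 19.7%, 17.0% and 16.2%. Of the 3577 windows that touched a highly methylated window without being one, 2939 (82.2%) were at 60 to 80% and 7 were under 40%.

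**Figure D2:**
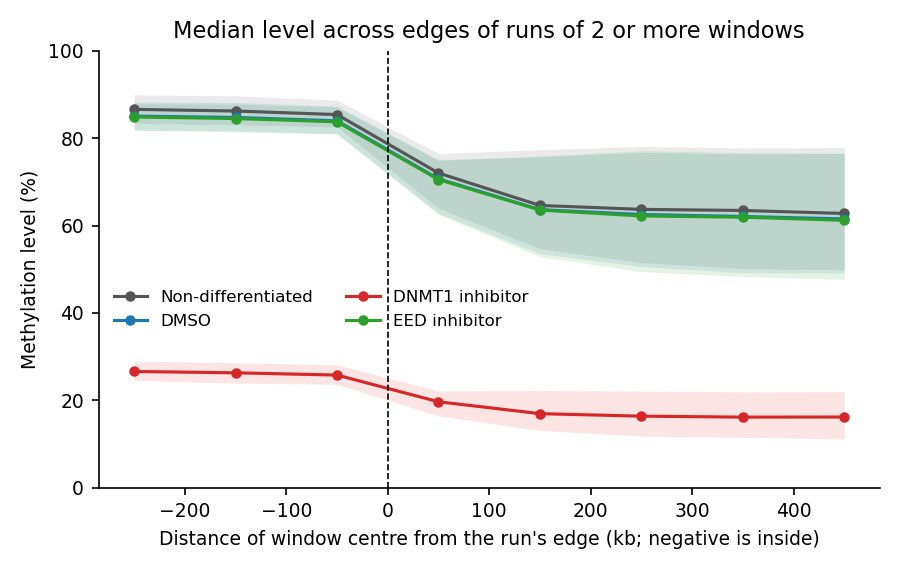
Median methylation level (line) and quartiles (shade) of windows by distance of their centre from the edge of a run, in kb, in the 4 libraries; negative distances are inside. Medians are lower outside the edge in all 4 libraries, from 85.4% to 72.0% in non-differentiated cells, where the rule sets a step, and from 25.8% to 19.7% with the DNMT1 inhibitor.

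Genes filled most of these windows. Protein-coding gene bodies covered 81.6% of their bases, against 39.6% in the other windows, and exons 7.51% against 3.15%. In 2163 windows (52.7%) gene bodies covered at least 90% of the bases, and 153 (3.73%) held no protein-coding gene. Gene starts were at 10.2 per Mb, between 6.29 per Mb in all other windows and 13.8 per Mb in those at 60 to 80%. Median CpG density was 10.8 per kb against 7.83, and median GC content 41.1% against 39.6%. Windows at 60 to 80% had like values, with 11.4 CpGs per kb, 42.6% GC and 6.82% of bases in exons. Windows of higher starting level were fuller of gene bodies and held fewer starts. From the 80 to 82% bin to windows at 92% or more, the share of bases in gene bodies went from 67.3% to 97.8%, and starts went from 16.2 to 0.714 per Mb. These shares describe how the windows are made up and were not tested. In non-differentiated cells promoter CpGs of these windows were at 28.8% and intron CpGs at 88.4%. Windows with more starts thus average lower, so part of the fall in starts across bins is built in.

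Of 18357 protein-coding genes in measured windows, 4928 (26.8%) had at least 50% of their body in highly methylated windows. That share was 15.8% for genes under 10 kb, 46.8% for genes of 100 to 200 kb and 29.3% for longer ones. Among 16 gene lists the shares differed widely. Of the 6 genes for H3K36 methylation, 5 lay there: SETD2, NSD1, NSD2, ASH1L and SETMAR. Their bodies were at 87.3% (SETMAR) to 93.2% (NSD1) in non-differentiated cells and at 24.3% (NSD2) to 30.8% (ASH1L) with the DNMT1 inhibitor. Of 32 splicing factor genes 14 did (43.8%), among them PRPF6, of the spliceosome's U4/U6.U5 particle, whose body was at 94.4%, 93.4%, 30.4% and 93.3% in the 4 libraries. DNA methylation and Polycomb genes had 10 of 24 (41.7%), proteasome subunits 17 of 44 (38.6%) and mitochondrial ribosomal proteins 21 of 76 (27.6%).

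DNMT1 itself lay wholly in such windows. Its body was at 92.1% in non-differentiated cells, 91.4% with DMSO, 23.2% under the DNMT1 inhibitor and 91.1% under the EED inhibitor. UHRF1, its partner at replication, read 90.4%, 89.3%, 26.6% and 88.9%. SUZ12, a core subunit of the same Polycomb complex as EED, read 93.6%, 93.1%, 27.4% and 92.5%. All of these were low in the DNMT1 inhibitor library only.

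Erythroid genes had 12 of 45 (26.7%), close to the share of all genes. Among them, EPB41, a red cell membrane skeleton protein, read 92.1%, 91.5%, 28.8% and 91.7%. ZBTB7A, a repressor of fetal globin genes, read 85.98%, 85.2%, 23.4% and 85.8%, and RHAG, a red cell membrane glycoprotein, 84.95%, 84.1%, 27.4% and 84.2%. The fetal globin genes HBG1 and HBG2 also lay there, but each rests on 10 CpGs and the pair is nearly identical in sequence, so reads may be assigned to the wrong copy and their levels are uncertain.

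Olfactory receptors had 16 of 370 genes (4.32%), potassium channels 4 of 81 (4.94%), neurotransmitter receptors 3 of 34 (8.82%), histone genes 2 of 73 (2.74%) and clustered protocadherins 1 of 53 (1.89%). The neurotransmitter receptor list was drawn from GRI and GABR gene symbols, so a gene on it, such as GRINA, need not be a receptor. Its other genes counted here were GABRG1 and GRIN3B. Keratins had 0 of 48 and HOX genes 0 of 39. Taste receptors, with 3 of the 10 measured out of 24 listed (30%), were near the share of all genes. Cytosolic ribosomal proteins had 10 of 77 (13.0%). Gene length differs between the lists, and its part in these shares was not tested. ZNF zinc finger genes, many of them on chromosome 19, had 94 of 487 (19.3%). Over the whole ZNF list the median body kept 35.4% of the DMSO level with the DNMT1 inhibitor, against 26.6% for all genes. ZNF316 kept 51.5% and ZNF383 46.2%. The lists were chosen with earlier results known, so these counts describe them only.

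**Figure D3:**
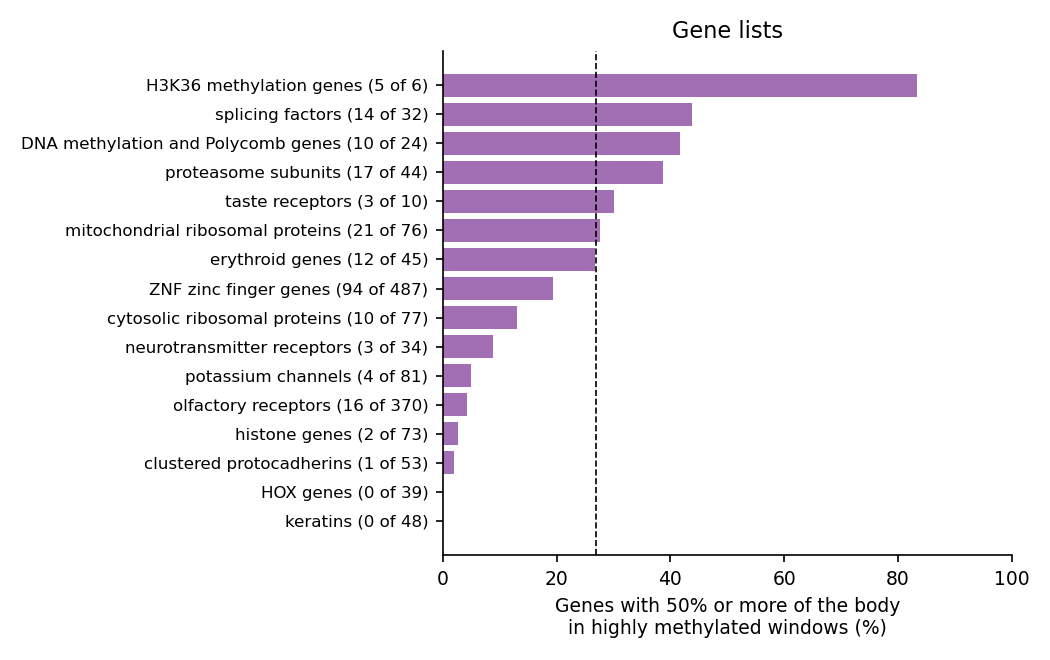
Share of each gene list's measured genes with at least 50% of the body in highly methylated windows (bars, with counts), beside the 26.8% of all protein-coding genes (dashed line). The H3K36 methylation genes lie highest, with 5 of 6, and keratins and HOX genes at 0.

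Among genes lying wholly in such windows with at least 100 shared CpGs, the highest body level was that of MAB21L2 (chr4:150582151-150584693), a developmental gene: 97.5%, 96.6%, 59.95% and 95.8% in the order non-differentiated, DMSO, DNMT1 inhibitor, EED inhibitor. It kept 62.1% under the DNMT1 inhibitor, above the 31.0% of the windows together. It is CpG-dense, with 100 shared body CpGs in a gene of 2543 bases, against a median of 10.8 CpGs per kb in the windows. Among CpGs of these windows at 80% or more in non-differentiated cells, those with 21 or more CpGs within 250 bases on either side kept 42.4%. The part of density in the gene's value was not tested. Other genes near the top by body level were SLFNL1 (96.1%), FANCD2OS (95.2%), the serotonin receptor gene HTR2B (94.8%) and BPNT1, a nucleotide phosphatase gene (94.7%). IGFALS, which encodes a carrier of insulin-like growth factors, WFIKKN1, PRPF6 and NUDT13 stood at 94.4% to 94.7%. Among the genes named here the share kept went from 23.3% in HTR2B to 62.1% in MAB21L2.

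Gene starts lay in troughs, in these windows as in the others. Within 500 bases upstream of starts the level was 14.3% in non-differentiated cells, and 5 to 10 kb downstream it was 87.6%. In the other windows these levels were 19.05% and 70.9%. The matching DNMT1 inhibitor levels in the highly methylated windows were 3.603% and 26.3%. Of 325620 stretches of 1 kb with at least 5 shared CpGs, 5401 (1.66%) were at 20% or less, in 2397 of the windows, and 62.2% of these overlapped a promoter. In the other windows 6.46% of stretches were as low, and 10.35% of those overlapped a promoter. The low stretches of the highly methylated windows read 5.65%, 5.83%, 0.917% and 5.78% in the 4 libraries. The 0.917% includes any cytosine left unconverted by bisulfite.

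**Figure D4:**
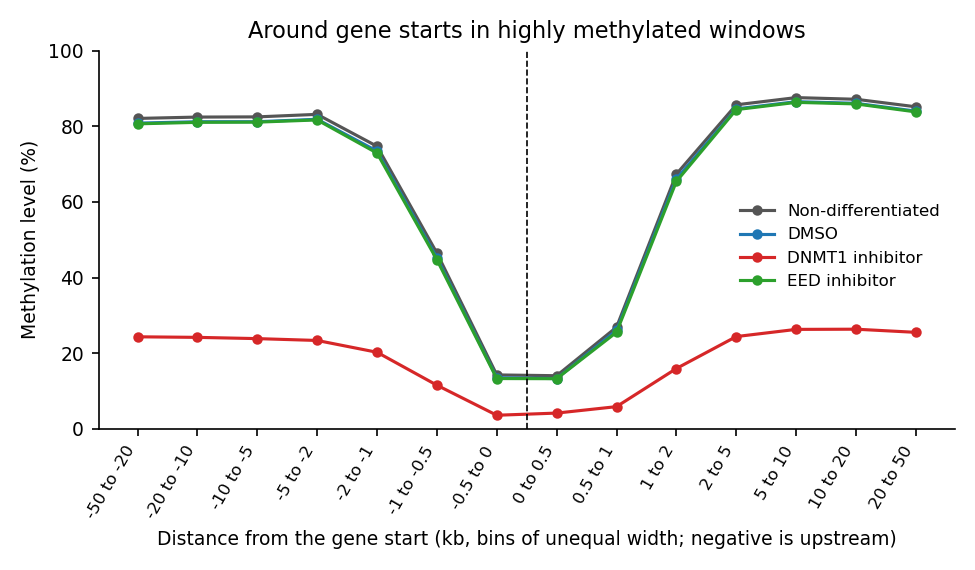
Methylation level around protein-coding starts that lie in highly methylated windows, by distance bins of unequal width in kb, in the 4 libraries. The trough at the start reaches 14.3% upstream in non-differentiated cells, and the DNMT1 inhibitor curve lies below the other curves throughout.

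With differentiation, levels in these windows were slightly lower. The differentiated culture also received DMSO and the non-differentiated one was untreated, so differentiation and DMSO cannot be told apart here. The pooled difference, DMSO minus non-differentiated, was -1.38 points, and -1.31 points in the other windows. Lower levels were found in 4069 of 4105 windows (99.1%), against 92.4% of all windows and 96.3% of those at 60 to 80%. The non-differentiated library chose the windows, so this is a description. Differences of 2 points or more downward, a size chosen after values were seen, occurred in 866 windows (21.1%) against 11.9% of all windows, and upward in 0 against 0.015%. In windows at 60 to 80% the downward share was 19.1%, close to that of the highly methylated windows. DOCK2, a guanine nucleotide exchange factor of blood cells, had 80.6% and 75.6%, CPED1 80.8% and 75.7%, and TANC2 88.6% and 83.7% in non-differentiated and DMSO cells. The largest upward difference was 0.893 points, in the window of PSPC1, a paraspeckle protein.

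With the DNMT1 inhibitor, every window had a much lower level than with DMSO. The pooled difference was -58.3 points, against -40.3 in the other windows. All 4105 were lower, and so were all 26624 measured windows. Differences of at least 50 points downward were found in 4072 windows (99.2%) against 27.6% of all windows and 49% of those at 60 to 80%, a size that windows under 50% with DMSO cannot reach. The share of the DMSO level kept was 30.95% pooled, against 26.7% in the other windows, and ran from 19.6% to 50.4% between windows. At least 30% was kept in 2488 windows (60.6%), against 25.8% of all windows, 24.9% of those at 60 to 80% and 36.3% of those under 40%. This cut, chosen after values were seen, lies between close medians, 30.8% here and 27.6% at 60 to 80%. CpGs at 80% or more in non-differentiated cells kept 31.9% in the highly methylated windows and 30.05% in the others. The relation of window share kept with starting level was not one-way. Median share kept was 29.0% at 30 to 35%, 22.1% at 40 to 45% and 29.1% at 75 to 80%. It was 30.1% at 80 to 85% and 32.2% at 90 to 95%.

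**Figure D5:**
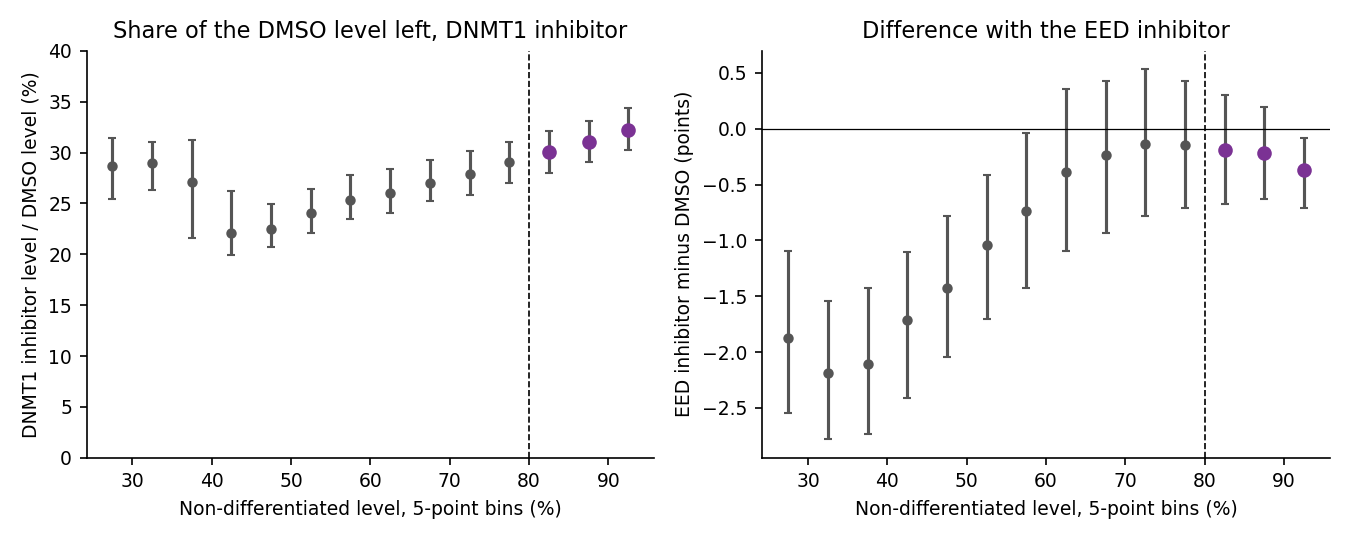
Left, share of the DMSO level left with the DNMT1 inhibitor; right, EED inhibitor minus DMSO in points; both by 5-point bins of starting level from 25% up (point, median; bar, quartiles; purple, highly methylated windows). The share kept is lowest at 40 to 45% and 32.2% in the top bin, and the EED inhibitor difference is nearest 0 at 70 to 80%.

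The 5 windows of highest starting level overlapped gene bodies and held no start: MYCBP2, a ubiquitin ligase; JAK2, the kinase of erythropoietin signalling; SMARCC1, a chromatin remodeller subunit; TAOK3, a kinase; and SIRT1 with HERC4, a deacetylase and a ubiquitin ligase. MYCBP2's window (chr13:77200001-77300000) read 94.6%, 92.5%, 29.6% and 92.1% in the 4 libraries. The JAK2 window (chr9:5000001-5100000) read 94.6%, 93.8%, 41.2% and 93.7%, the highest DNMT1 inhibitor level of any of the windows. JAK2 spans 3 of them, and they kept 33.9%, 43.9% and 39.4%. JAK2, ZMIZ1 and TNIK were singled out along their length after values were seen.

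The largest shares kept were in a window with ZNF585B and ZNF383 on chromosome 19 (50.4%), one with KCNG2 and CTDP1 on chromosome 18 (49.9%), one with PDGFA, a growth factor, and PRKAR1B on chromosome 7 (45.0%), one with LMF1 and SOX8 on chromosome 16 (44.9%), and one with ERICH1 and DLGAP2 on chromosome 8 (44.3%). The chromosome 19 window (chr19:37200001-37300000) read 81.6%, 79.8%, 40.2% and 77.97%, at a coverage of 45.0 to 49.2 reads, above the 27.6 to 29.4 of the highly methylated windows together. It had 1327 shared CpGs at a density of 32.3 per kb, so many of its CpGs were not measured. The chromosome 8 window had only 475 at 25.4 per kb, and the chromosome 18 window 1940 at 35.1 per kb. Over all 4105 windows 85.8% of the CpGs in hg38 were shared. Of the 32 windows that kept at least 40%, 22 (68.8%) lay within 5 Mb of a chromosome end, against 416 (10.1%) of all 4105. Their median CpG density was 18.5 per kb, against 10.8. These 32 were chosen by the value itself, and the part of density or depth in it was not tested.

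Among the 5 windows with the smallest shares kept were 2 adjacent windows of ZMIZ1, a transcriptional coregulator gene, at 19.64% and 19.68%. They (chr10:79100001-79200000 and chr10:79200001-79300000) read 83.2%, 81.8%, 16.1% and 82.2%, and 83.3%, 82.2%, 16.2% and 82.4%. The windows on either side, at 68.9% and 71.4% in non-differentiated cells, kept 22.8% and 23.6%. SERGEF's window kept 19.64%, the window of MCM2, a replicative helicase subunit, with PODXL2, ABTB1 and MGLL 20.7%, and that of OTUB1, FLRT1 and MACROD1 21.1%.

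Pooled over all highly methylated windows, denser CpGs kept a larger share. Among CpGs at 80% or more in non-differentiated cells, those with 1 to 2 CpGs within 250 bases on either side, themselves included, kept 25.5%, and those with 21 or more kept 42.4%. In the other windows the same classes kept 23.3% and 42.5%. Across window averages, density and share kept were at most weakly related: Pearson's r of CpG density and share kept was -0.039 and Spearman's rho -0.11 across the 4105 windows, which share libraries and are not independent. Exons, introns and intergenic CpGs of the highly methylated windows kept 29.9%, 31.1% and 31.0%. Promoter CpGs, at only 27.8% with DMSO, kept 26.8%.

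With the EED inhibitor, the windows were nearly level with DMSO. The pooled difference was -0.211 points, against -1.11 in the other windows. Of the 4105 windows 2734 (66.6%) were lower, against 79.2% of all windows and 59.1% of those at 60 to 80%. With CpG levels averaged without weighting by coverage, which chose 3802 highly methylated windows, their difference was -0.0981 points. Windows at 60 to 80% had a pooled difference of -0.296 points and a median of -0.212, beside a median of -0.245 in the highly methylated windows. Downward differences of at least 2 points were found in 60 windows (1.46%) against 21% of all windows, and upward ones in 28 (0.682%) against 1.12%. In windows at 60 to 80% these shares were 5.41% and 2.69%. The 5 windows most lowered, on chromosomes 4, 7, 9 and 11, held no protein-coding gene, and their DMSO and EED inhibitor levels were 78.6% to 82.4% and 75.7% to 78.9%. Among the 153 windows without a protein-coding gene, 13 (8.50%) were lower by at least 2 points.

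The largest upward difference, 4.00 points, was in the DOCK2 and INSYN2B window (chr5:169800001-169900000). This window was at 80.6% in non-differentiated cells, 75.6% with DMSO and 79.6% with the EED inhibitor. TNIK, which encodes a kinase of the Wnt pathway, had 3 highly methylated windows with differences of 2.13, 3.34 and 3.92 points. Its most raised window (chr3:171300001-171400000) read 84.3%, 81.5%, 24.8% and 85.4% in the order non-differentiated, DMSO, DNMT1 inhibitor, EED inhibitor. EVL, an actin regulator, had 82.7% in non-differentiated cells, 78.9% with DMSO and 82.4% with the EED inhibitor. For the PRPF18 and FRMD4A window these levels were 81.0%, 78.4% and 81.6%. The differentiation and inhibitor differences use the same DMSO library, so a low DMSO value enters each of them. Of the 28 windows higher by at least 2 points, 27 (96.4%) were also at least 2 points lower with DMSO than in non-differentiated cells. Among all 4105 windows 866 (21.1%) were.

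Promoters, taken from 1000 bases before to 500 after a start, were tested with two-sided Fisher's exact tests on reads, Benjamini-Hochberg adjusted over 17670 promoters. Promoters were called where the adjusted p was below 0.01 and levels differed by 25 points or more. The test sets the reads of 2 libraries against each other, not 2 conditions. Of 4030 promoters in highly methylated windows, 1856 (46.1%) were at 20% or less in non-differentiated cells and 429 (10.6%) at 80% or more. Of promoters starting in other windows, 39.2% and 5.11% were. With the DNMT1 inhibitor 1601 were called lower (39.7%), against 43.2% of all promoters, and 0 higher, against 0% (0 with an unadjusted p under 0.05 in that direction by the same Fisher's exact test, against 0.017% of all promoters). The share called is thus near the background. A promoter under 25% with DMSO cannot be called lower. Median levels of the 4030 were 23.2% with DMSO and 4.32% with the DNMT1 inhibitor. Without a size limit, 3343 of the 4030 were lower at an unadjusted Fisher's exact p under 0.05, against 88.2% of all promoters. When reads were divided by the number of CpGs, 745 were called (18.5%), against 18.6% of all promoters.

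The largest called differences were in ANGPTL1, an angiopoietin-like factor gene (92.5% with DMSO, 10.7% after inhibition, and a Fisher's exact adjusted p of 2.79e-62), and CHRNA10, a nicotinic receptor subunit gene (93.7% and 12.4%). UBAP1L had 91.9% and 10.8%, NCS1, a neuronal calcium sensor gene, 90.3% and 10.1%, and PAQR7, a progestin receptor gene, 98.3% and 18.4%. These 5 rest on 6 to 14 shared CpGs each. Because neighbouring CpGs can lie on the same read, the p printed for ANGPTL1 is too small. Once its counts were scaled down by its 6 CpGs, Fisher's exact test gave an adjusted p of 9.49e-09.

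With the EED inhibitor 0 promoters in these windows were called lower, against 0% of all promoters, and 1 higher, against 0.0113%. Unadjusted Fisher's exact p was under 0.05 for 437 of the 4030 in the lower direction, against 9.64% of all promoters, and for 450 in the higher, against 11.7%. The promoter called was that of CAMKK1, a calcium-dependent kinase gene (chr17:3892553-3894053), with 46.1% in non-differentiated cells, 40.2% with DMSO (95% Wilson interval 33.8 to 47.0%), 15.7% under the DNMT1 inhibitor and 69.0% under the EED inhibitor (62.0 to 75.2%), over 10 CpGs. Its adjusted p was 3.08e-06 by Fisher's exact test, and 1 when reads were divided by the number of CpGs.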

How the data were processed

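Whole-genome bisulfite libraries of 4 HUDEP-2 cultures, 1 a group, were analysed. Per the submitters' processing notes, Trim Galore 0.6.7, cutadapt 4.1, Bismark, Bowtie2 2.1.0, methylKit and hg38 were used, with settings not given in the sources used here. The deposited tables give, per CpG, a coverage count of reads (10 or more in every row) and the percent of reads with C and with T, as named in the file headers. Unconverted cytosine counts as methylated, and CpGs under 10 reads are missing. The conversion rate was not measured here.

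Methylated reads were the rounded product of coverage and percent. CpGs in all 4 tables were summed in 100 kb windows, so deeper CpGs weigh more. Genes were those of GENCODE 44 (hg38). Levels of gene bodies ran from 500 bases past the canonical start, where the promoter ends, to the gene end. They therefore leave out the low region just after the start. The share of a body in highly methylated windows was counted from the canonical start. Shares of window bases used the whole gene record. The share kept is the DNMT1 inhibitor level over the DMSO level. Python 3.11.15, numpy 2.4.6, scipy 1.17.1 and pandas 2.3.3 were used. The promoter test was tried on simulated counts that had no reads shared between CpGs and no spread between cultures. That run therefore cannot show how the test behaves with either. Windows and genes were named by rank: the 5 most extreme per comparison, 10 by body level and up to 6 per list. Some items that these ranks select, including the sequence stretch of 1 window, are not reported here. The windows, lists and named items were chosen with earlier results of these data known, and the sizes of 2 and 50 points and 30% after values were seen. Alternatives changed window size, grid, threshold, coverage, weighting, chromosomes, the library that chose the windows and the promoter rules.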

Additional observations from a re-analysis of the deposited data

How the results depend on the processing

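Alternatives were run for the number of windows, the 3 pooled differences, the share kept and the promoter calls. None of the pooled differences changed sign. Runs, edges, gene lists, density classes and named windows were computed under the main settings only. No paired analysis was possible because each group has 1 library and no replicate was left to pair or leave out. In the order 50 kb windows, 200 kb windows, grid shifted by 50 kb, level of 75%, level of 85%, at least 20 reads, unweighted CpG mean, CpGs above 100 reads left out, without chromosome 18 and chromosome 10 beyond 100 Mb, and windows chosen in the DMSO library, the DNMT1 inhibitor difference was -59.06, -57.47, -58.3, -56.73, -59.72, -59.3, -57.84, -58.24, -58.28 and -58.76 points. In that order the share kept was 30.93, 30.89, 30.89, 30.45, 31.62, 29.95, 31.55, 30.98, 30.92 and 31.06%. The EED inhibitor difference was -0.1935 (50 kb), -0.1869 (200 kb), -0.1942 (shifted grid), -0.195 (75%), -0.2567 (85%), -0.09813 (unweighted) and -0.2447 points (chosen in DMSO). The differentiation difference was -1.407 (50 kb), -1.349 (200 kb), -1.392 (85%), -1.152 (unweighted) and -1.306 points (chosen in DMSO). The number of windows was 9057 at 50 kb and 1762 at 200 kb, with the minimum of shared CpGs scaled to the window size, and 2258 at 85%. Promoters called lower with the DNMT1 inhibitor numbered 745 of 4030 with reads divided by CpGs (18.6% of all promoters), 2763 of 4125 from -2000 bases (64.5% of all), 2548 of 4030 at 10 points (68% of all) and 1483 of 2948 with at least 20 reads (52.4% of all). Promoters called in either direction with the EED inhibitor numbered 0, 0, 67 (28 lower and 39 higher) and 0 under these rules. Over all promoters the shares called were 0%, 0%, 1.47% and 0.0234%. The single upward call was thus absent in 3 of these rules. The cause of the other shifts was not tested.

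Read depth limits single windows to about 1 point and promoters more. Without replicate libraries, culture-to-culture spread is unknown, and small differences such as those with differentiation or the EED inhibitor cannot be set against it.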
